A study of Homo sapiens with 4 samples.

Results

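The Eph receptors and ephrins described here were 10 genes, 6 receptors (EPHA1, EPHA2, EPHA4, EPHB2, EPHB3 and EPHB4) and 4 ligands (EFNA1, EFNA4, EFNB1 and EFNB2), out of 58735 genes in the deposited tables. They were chosen by name and matched by their Ensembl identifiers, and all 10 were found. The cells were MHCC-97H, an established human HCC line of high metastatic potential, with an unmodified genotype in every library. They were given PBS, or 2 μg of migrasomes (Migs, large vesicles that migrating cells leave behind), and RNA was taken after 24 h. Normo-Migs came from MHCC-97H cells grown in normoxia, hypo-Migs from the same line grown in hypoxia, and CD147KO-Migs from its CD147 knockout grown in hypoxia. CD147 (BSG) was therefore missing from the cells that released the CD147KO-Migs and not from the cells whose RNA was read. The labels offer several oxygen levels for hypoxia and do not say which was used, and they do not say whether the knockout was a single clone. The study compared these conditions to find signalling that hypo-Migs bring to HCC cells that form vasculogenic mimicry (VM), tubes lined by tumour cells.

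Eph receptors form the largest family of receptor tyrosine kinases, and their ligands, the ephrins, are themselves held on the membrane of a neighbouring cell. Ephrins of class A are tied to the membrane by a lipid anchor, whereas those of class B cross it and have a cytoplasmic tail. Contact sends a forward signal into the cell that carries the receptor and a reverse signal into the cell that carries the ephrin, and both act on the cytoskeleton, adhesion and repulsion. EphA2 is known as a receptor that tumour cells use in VM, and the pair of EphB4 and ephrin-B2 is known for marking veins and arteries. Receptors of class A mostly bind ephrins of class A, and receptors of class B those of class B, with EphA4 as a known exception that also binds class B.

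Each condition had 1 library, so a difference between libraries has no replicate check, and each test compares 2 libraries rather than 2 conditions. Reads on genes numbered from 33882496 to 40285223 per library. Intervals are 95% intervals that cover counting error only, and without molecular identifiers repeated reads can stem from the same molecule. In this bulk RNA, fewer cells that use a gene and less RNA per cell cannot be told apart. The library labelled PBS stood apart from the other 3. It had 3 reads or fewer for 251 genes that had at least 100 reads in each Mig library, and no Mig library had any such gene against the others. Mitochondrial genes took 2.69% of its reads and 5.00% to 5.16% in the Mig libraries. All comparisons with PBS share this library, so they are not independent of each other, and the comparisons among Mig libraries are those without it. Of 10 markers of hepatocytes and HCC, ALB, AFP, APOB, TTR and GPC3 had 0 reads in all 4 libraries, whereas the epithelial keratins KRT8 and KRT18 had at least 36742 reads in each and HNF4A, a liver transcription factor, had 134 to 246. SERPINA1, a secreted liver protein, had 25 reads with PBS and 2 to 10 in the Mig libraries, where it was called lower, and APOA1 had 0 to 2. The labelled cell type therefore rests here on keratins and HNF4A, with secreted liver products at few reads or at 0.

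The promoters of EPHA2, EPHB2, EPHB3 and EFNB1 are shown because EPHA2 was the receptor with the highest level and the other 3 had the largest differences from PBS after EPHA4, which had at most 23 reads. Each is the 250 bases before the RefSeq start, written 5′ to 3′ on the strand of the gene (GRCh38.p14). EPHA2 lies on the minus strand (chr1:16156070-16156319) and EPHB2 (chr1:22710589-22710838), EPHB3 (chr3:184561535-184561784) and EFNB1 (chrX:68828771-68829020) lie on the plus strand. Capitals mark E-boxes (CANNTG, the letters that basic helix-loop-helix factors such as TWIST1 bind) and the core letters of hypoxia response elements (ACGTG and GCGTG), searched on both strands. An ACGTG preceded by C is also part of an E-box. In the coordinates used for counting (GRCh38), the genes themselves span chr1:16124337-16156087 (EPHA2), chr1:22710839-22921500 (EPHB2), chr3:184561784-184582409 (EPHB3) and chrX:68828997-68842147 (EFNB1).
EPHA2: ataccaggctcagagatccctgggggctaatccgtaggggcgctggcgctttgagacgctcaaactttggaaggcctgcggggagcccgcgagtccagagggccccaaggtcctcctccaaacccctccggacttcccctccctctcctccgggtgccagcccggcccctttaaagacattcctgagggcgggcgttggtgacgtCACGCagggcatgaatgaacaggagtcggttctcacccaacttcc
EPHB2: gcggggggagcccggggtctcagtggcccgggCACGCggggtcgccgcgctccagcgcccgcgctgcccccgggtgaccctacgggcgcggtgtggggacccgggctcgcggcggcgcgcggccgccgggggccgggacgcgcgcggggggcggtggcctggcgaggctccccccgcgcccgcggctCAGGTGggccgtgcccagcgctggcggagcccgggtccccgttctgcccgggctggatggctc
EPHB3: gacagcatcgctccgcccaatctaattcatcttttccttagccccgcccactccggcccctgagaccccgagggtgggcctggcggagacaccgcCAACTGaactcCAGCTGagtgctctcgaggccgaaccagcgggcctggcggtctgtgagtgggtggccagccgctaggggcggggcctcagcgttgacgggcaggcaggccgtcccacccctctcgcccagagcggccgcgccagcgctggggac
EFNB1: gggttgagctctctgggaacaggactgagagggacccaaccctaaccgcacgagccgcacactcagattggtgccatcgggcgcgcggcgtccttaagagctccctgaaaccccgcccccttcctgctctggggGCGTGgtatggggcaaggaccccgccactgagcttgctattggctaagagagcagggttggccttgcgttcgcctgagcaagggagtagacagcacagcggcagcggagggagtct
The EPHB3 window held 2 E-boxes and no hypoxia core, and the EPHB2 window held 1 E-box and 1 GCGTG (as CACGC on the strand shown). EPHA2 and EFNB1 had 1 GCGTG each and no E-box. Over the 10 genes, 6 windows held an E-box, 7 held GCGTG and 0 held ACGTG. In the same window of 27305 promoters, 62.2% held an E-box, 31.9% GCGTG and 18.7% ACGTG. The EPHB2 window was 84.8% G and C and the EPHA4 window 43.2%, against a median of 58.0% over all promoters. The RefSeq start of EFNA1 lies 416 bases from the start used for counting, and those of the other members within 36 bases. A match describes letters only, and no binding was measured.

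Levels of different genes were compared on FPKM, reads per length of the gene and size of the library. EPHA2 was the most abundant of the 10 genes in every library, followed by EFNA1, EPHB4 and EFNA4 in the same order each time. The level of EPHA2 was 94.0 FPKM with PBS, and 48.5, 46.3 and 47.1 FPKM with normo-Migs, hypo-Migs and CD147KO-Migs. EFNA1, the ligand best known for binding EphA2, stood at 29.7, 31.8, 35.6 and 32.2 FPKM in the same order of libraries. At the low end, EPHA1 and EPHA4 stayed below 0.13 FPKM everywhere, and their intervals overlapped in the 3 Mig libraries. With PBS, where EPHA4 had 0 reads, the interval of EPHA1 lay above it. In the middle of the order, EFNB2 (2.72 FPKM) and EFNB1 (2.49) had overlapping intervals with PBS, whereas EFNB1 was well above EFNB2 in all Mig libraries. EFNA4 and EFNB1 were neighbours with overlapping intervals with normo-Migs (10.4 and 9.45 FPKM). EPHB2 was counted over 12516 bases of annotated exon and EPHB3 over 4532, so their relative FPKM depends on which transcripts the cells make.

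**Figure D1:**
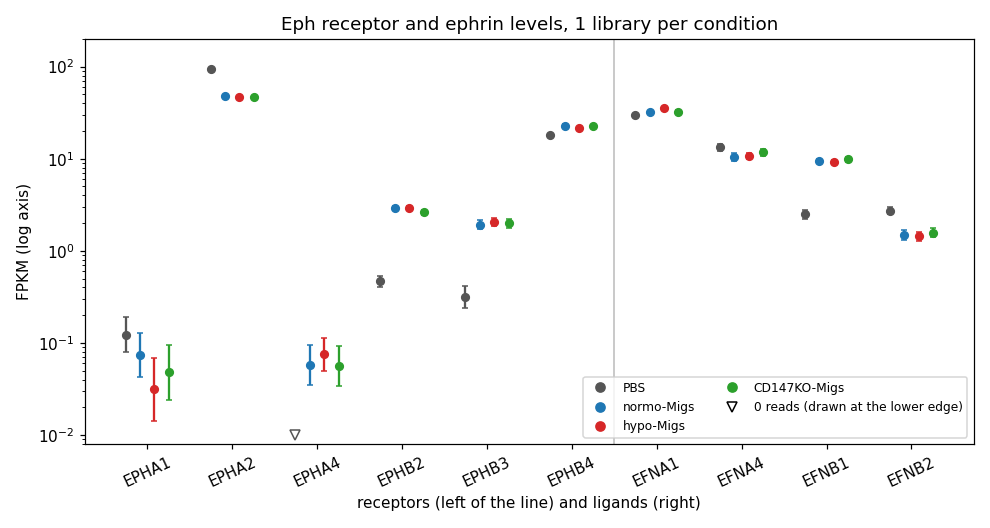
FPKM of the 10 genes (log axis) in each of the 4 libraries, with receptors left of the line and ligands right. Bars are 95% Wilson intervals of the read share and cover counting error only. EPHA2 leads in every library, EPHB2, EPHB3 and EFNB1 are low with PBS alone, and EPHA4 has 0 reads with PBS.

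A gene was called between 2 libraries when edgeR's two-sided exact binomial test on their reads gave an adjusted p of 0.05 or less over the 19895 genes tested and the log2 fold change was at least 1 in size. All 10 genes passed the filter of 10 reads in at least 1 library, EPHA4 only through the Mig libraries and EPHA1 through PBS and normo-Migs, so for EPHA4 a difference from PBS was built into passing.

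Among the 3 Mig libraries, the Eph receptors and ephrins were close to each other. None of the 10 was called for hypo-Migs against normo-Migs (0 of 10, where 4.91% of all tested genes were called). Between hypo-Migs and CD147KO-Migs 0 were called (5.05% of all genes), and between normo-Migs and CD147KO-Migs again 0 (4.90%). Their median log2 fold changes were -0.02, -0.05 and -0.01, against 0.00 over all genes tested in each of the 3. By the weaker criterion that the exact 95% interval of the fold leaves out 1, 3 genes differed between hypo-Migs and normo-Migs (34.9% of all genes did). These were EFNA1, EPHA2 and EPHB4. EFNA1, EPHB2 and EPHB4 did so between hypo-Migs and CD147KO-Migs (35.0%), and EPHB2 alone between normo-Migs and CD147KO-Migs (34.5%).

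EFNA1 was the ligand whose interval left out 1 for hypo-Migs against both other Mig libraries. It had 3661 reads in the hypo-Migs library, against 2772 for normo-Migs, 2888 for CD147KO-Migs and 2612 for PBS. After scaling, it was 1.12-fold higher with hypo-Migs than with normo-Migs (log2 0.16, interval 0.09 to 0.24) and 1.11-fold higher than with CD147KO-Migs (0.15, 0.08 to 0.22). Normo-Migs and CD147KO-Migs differed by a log2 of -0.02 (-0.10 to 0.06). Both differences for hypo-Migs were far under the threshold for a call.

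EPHB2, a receptor known from axon guidance and from sorting cells in the gut, was 1.12-fold higher with hypo-Migs and with normo-Migs than with CD147KO-Migs (log2 0.16 for both, intervals 0.05 to 0.27 and 0.05 to 0.28). Hypo-Migs and normo-Migs differed in it by less than counting error (log2 0.00, -0.11 to 0.11). EPHB4, the receptor of ephrin-B2, was slightly lower with hypo-Migs, by a log2 of -0.09 (-0.14 to -0.03) against normo-Migs and -0.08 (-0.14 to -0.03) against CD147KO-Migs. EPHA2 was at -0.07 (-0.11 to -0.02) with hypo-Migs against normo-Migs and at -0.03 (-0.07 to 0.02) against CD147KO-Migs. The EphA2 receptor transcript was thus not measurably higher with hypo-Migs than with either other Mig library.

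For the remaining members the intervals between Mig libraries included no difference. EPHB3, EFNB1, EFNB2 and EFNA4 had log2 fold changes between -0.18 and 0.10 in the 3 comparisons, with intervals reaching at most -0.38 and 0.32. The least abundant receptors could not be compared as closely. EPHA1 had 12, 6 and 8 reads with normo-Migs, hypo-Migs and CD147KO-Migs, which gave a log2 of -1.00 (-2.94 to 0.29) between hypo-Migs and normo-Migs. EPHA4 had 15, 23 and 15 reads, and its interval between the same pair ran from -0.62 to 1.42. At this depth, a difference of 2-fold in EPHA1 or EPHA4 was not detectable.

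**Figure D2:**
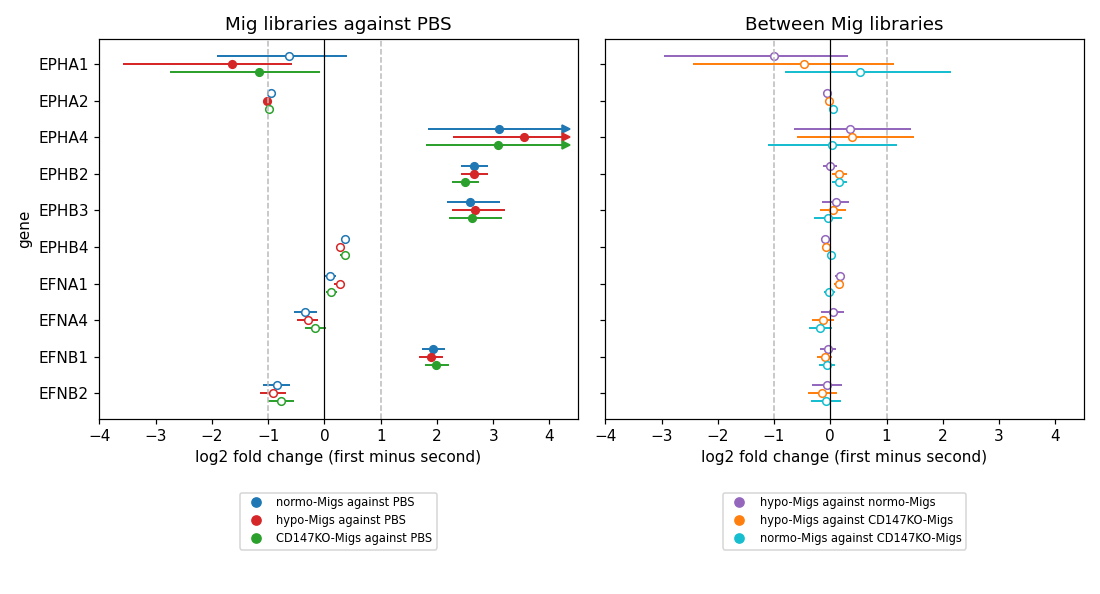
Log2 fold change of each gene in the 3 comparisons with PBS (left) and the 3 among Mig libraries (right), with lines for exact 95% counting intervals, filled points for called genes and dashed lines at the fold threshold. Arrows mark intervals with no upper end. EPHA4, EPHB2, EPHB3 and EFNB1 are filled at the right in the left panel, and no point is filled in the right panel.

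Against the library labelled PBS, 4 genes rose in each Mig library, the receptors EPHB2, EPHB3 and EPHA4 and the ligand EFNB1. The share of all tested genes called was 27.2% for normo-Migs (16.5% higher and 10.7% lower), 28.3% for hypo-Migs (17.5% and 10.9%) and 27.5% for CD147KO-Migs (16.6% and 10.9%). Beside this background, 4 of 10 genes rose and 0 fell with normo-Migs, 4 rose and 2 fell with hypo-Migs, and 4 rose and 1 fell with CD147KO-Migs. The median log2 fold change of the 10 was 0.24, 0.27 and 0.24, where that of all tested genes was 0.03, 0.04 and 0.03. EPHA4 had 0 reads in PBS and passed the filter through the Mig libraries only. The counts of genes that rose and the medians of the 10 therefore lean upward. With an assumed coefficient of variation of 0.4 between libraries, among the genes that rose the calls of EFNB1 were lost in all 3 comparisons. Those of EPHB3 with normo-Migs and of EPHB2 with CD147KO-Migs were lost as well. With DESeq2 all were lost, but its dispersion over the 4 libraries takes in the difference from PBS as spread.

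EPHB2 had 201 reads in the PBS library, and 1261, 1483 and 1159 reads with normo-Migs, hypo-Migs and CD147KO-Migs. The PBS library was the low one and the 3 others lay close together. The fold over PBS was 6.36 with normo-Migs (log2 2.66, interval 2.45 to 2.89), 6.34 with hypo-Migs (2.65, 2.45 to 2.88) and 5.68 with CD147KO-Migs (2.49, 2.29 to 2.73).

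EPHB3, which shares ephrin-B ligands with EPHB2, went the same way at a lower level. It had 49 reads in the PBS library and 299, 377 and 318 in the Mig libraries (normo-Migs, hypo-Migs and CD147KO-Migs, the order used from here on), so that again PBS was the low one. The folds were 6.18, 6.62 and 6.40 (log2 2.58, 2.68 and 2.63, with lower interval ends of 2.19, 2.29 and 2.24).

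EPHA4 had 0 reads with PBS, with an upper interval end of 0.113 CPM (reads per 1000000 reads on genes), and 15 to 23 reads in the Mig libraries. Set against a floor of 3 reads in the PBS library, it was 5.06-fold, 6.59-fold and 4.93-fold higher with the Migs by its counted reads. The exact counting intervals of these folds had lower ends at log2 1.86, 2.31 and 1.82, which is less than those folds. Its fitted log2 values, from 3.08 to 3.55, depend on the prior count. Even so it stayed a rare transcript, at 0.0562 to 0.0752 FPKM in the Mig libraries.

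EFNB1, a ligand of class B that binds EphB2 and EphB3, had 285 reads with PBS and 1076, 1232 and 1154 with the Migs. It was 3.82-fold, 3.72-fold and 3.99-fold higher than with PBS (log2 1.93, 1.89 and 1.99). The receptors EPHB2 and EPHB3 and this ligand of theirs were thus all low in the PBS library and all higher in each Mig library. EFNB2, the other ligand of class B, lay the other way, with 472 reads with PBS and 258, 291 and 280 with the Migs. Its log2 values were -0.85 (-1.08 to -0.63), -0.91 (-1.13 to -0.70) and -0.77 (-0.99 to -0.56), which were under the threshold for a call.

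EPHA2 had 13527 reads with PBS and 6932, 7793 and 6930 with the Migs. PBS was the high library for this gene, by 1.93-fold, 2.02-fold and 1.98-fold. The log2 fold changes of -0.95 (-0.99 to -0.90), -1.01 (-1.05 to -0.97) and -0.99 (-1.03 to -0.94) lay on both sides of the threshold of 1, so that EPHA2 was called with hypo-Migs and not with the other 2 although the values were nearly the same. With hypo-Migs, the value was -1.00 when 10 reads were asked for in every library and the call was lost, and with CD147KO-Migs it was -1.01 with library totals in place of TMM and the call was made. EPHA2 overlaps an antisense gene, AL451042.2, by 877 bases, which had 29 to 59 reads per library.

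EPHA1, a receptor found mostly in epithelia, fell with hypo-Migs and CD147KO-Migs on few reads. It had 20 reads with PBS and 12, 6 and 8 with the Migs. The log2 values were -0.64 (-1.88 to 0.39), -1.64 (-3.56 to -0.59) and -1.16 (-2.73 to -0.10), with adjusted p of 0.268, 0.00402 and 0.0341 in edgeR's exact binomial test. Both calls were lost with an assumed coefficient of variation of 0.4 between libraries and with DESeq2, and the call with CD147KO-Migs also with one of 0.1. EPHA1 overlaps 823 bases of ZYX on the other strand, a gene with 5731 to 6749 reads per library, and since the strand setting of the counting is not given, reads of EPHA1 cannot be told apart from those of ZYX there.

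EPHB4, EFNA1 and EFNA4 differed less from PBS. EPHB4 had 3975 reads with PBS and 5063, 5610 and 5178 in the Mig libraries, a fold of 1.29, 1.21 and 1.28. EFNA1 was 1.08-fold, 1.21-fold and 1.09-fold higher. EFNA4, a ligand of class A whose gene stands in a row with EFNA3 and EFNA1 on chromosome 1, had 579 reads with PBS and 452, 547 and 525 with the Migs, for log2 values of -0.34 (-0.52 to -0.16), -0.30 (-0.47 to -0.13) and -0.16 (-0.34 to 0.01). It overlaps AL691442.1, a protein-coding gene on the same strand with 0 reads, by 5806 bases, and EPHB4 overlaps SLC12A9 on the other strand (1028 to 1148 reads) by 702 bases.

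These folds cannot be told apart from the way the PBS library differed as a whole. Among genes of other cell types, 4 of 5 tested fibroblast markers were called higher in each Mig library, and the summed level of the 6 listed was 23.7 CPM with PBS and 157 to 168 with the Migs. COL1A1 had 681 reads with PBS and 3472 to 4017 with the Migs, and PDGFRB had 70 and 1747 to 2446, while COL1A2 had 0 to 2 reads in every library. The 6 endothelial markers summed to 1.12 with PBS and 3.50 to 4.07 with the Migs, of which PECAM1 had 16 reads with PBS and 118, 146 and 131 with the Migs. TEK lay the other way, with 11 reads with PBS and 0, 3 and 0 with the Migs, and was called lower in each, while KDR, EMCN and VWF had 0 to 7 reads. CLDN5 was called between hypo-Migs and CD147KO-Migs on 15 and 2 reads. The 5 leukocyte markers summed to 0.531 and 1.48 to 2.91, with PTPRC at 0 to 2 reads. Most of that sum was CD14, with 14 reads with PBS and 47, 78 and 86 with the Migs. CD14 was the 1 leukocyte marker tested and was called higher in each Mig library. What part these differences have in the folds of the Eph receptors and ephrins was not tested.

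The makeup of the receptor pool in the PBS library was unlike that in the Mig libraries. EPHA2 made up 83.4% of the summed FPKM of the 6 receptors with PBS, and 63.5%, 63.5% and 63.2% with the Migs. EPHB4 made up 15.8% with PBS and 30.0%, 29.5% and 30.5% with the Migs. Receptors of class B together were 16.5% of the pool with PBS and 36.3% to 36.7% with the Migs. The receptor sum itself was 113 FPKM with PBS and 72.9 to 76.4 with the Migs, with EPHA2 the receptor that differed most in FPKM.

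Among the 4 ligands described here, EFNA1 held 58.1% to 62.6% of the sum in every library. EFNA2, EFNA3, EFNA5 and EFNB3 were not in this sum. They had 2.19, 4.54, 1.20 and 0.018 FPKM with PBS, and 3.07, 4.83, 4.50 and 0.072 with normo-Migs. Ephrins of class B made up 10.8% with PBS and 20.6%, 18.7% and 20.6% with the Migs, with EFNB1 at 5.16% in PBS and 16.1% to 17.8% in the others. The summed ligand level was 48.2 FPKM with PBS and 53.1 to 56.9 with the Migs. The ratio of the 6 summed receptors to the 4 summed ligands, not of the whole family, was 2.34 with PBS. With the Migs it was 1.44, 1.28 and 1.35. For the pair of EPHB4 and EFNB2, the levels were 17.9 and 2.72 FPKM with PBS and 21.5 and 1.43 with hypo-Migs. These shares carry no error between cultures, and they were not tested.

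**Figure D3:**
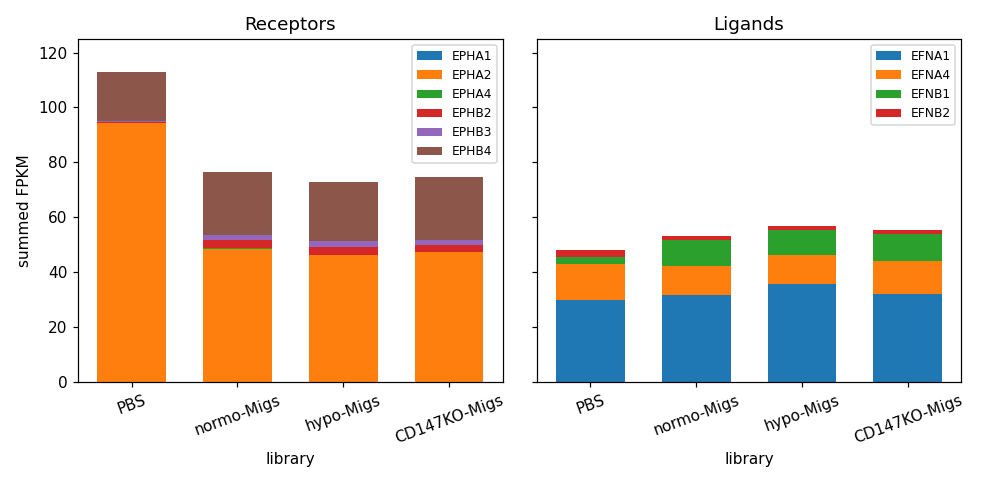
Summed FPKM of the 6 receptors (left) and 4 ligands (right) in each library, stacked by gene. The EPHA2 block is about 94.0 FPKM with PBS and at most 48.5 in the Mig libraries, while EFNB1 takes a larger part of the ligands in the Mig libraries.

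Of the 12 other Eph receptors and ephrins, 8 passed the filter. EFNA5, an ephrin of class A that also binds EphB2, had 236 reads with PBS and 882, 919 and 780 with normo-Migs, hypo-Migs and CD147KO-Migs, and rose 3.79-fold, 3.35-fold and 3.26-fold. EPHA5, a receptor known from neurons, had 0 reads with PBS and 101, 103 and 91 with the Migs. Set against a floor of 3 reads in the PBS library, it was 34.1-fold, 29.5-fold and 29.9-fold higher by its counted reads. The exact counting intervals of these folds had lower ends at log2 4.77, 4.56 and 4.57, which is less. EPHB6, whose kinase domain is inactive, had 0 reads with PBS and 22, 14 and 23 with the Migs.

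EPHA8 was the family gene called between Mig libraries. It had 51, 32 and 21 reads with the Migs and was 2.50-fold higher with normo-Migs than with CD147KO-Migs (adjusted p = 0.00292, edgeR's exact binomial test). With PBS it had 0 reads. The call of EPHA8 was 1 among 8 tested family genes, where 4.90% of all tested genes were called between normo-Migs and CD147KO-Migs. Against PBS, 4 of the 8 genes rose with normo-Migs, 5 in the hypo-Migs library, where EFNB3 (2 reads with PBS and 12 with hypo-Migs) was added, and 4 with CD147KO-Migs, and 0 fell (16.5%, 17.5% and 16.6% of all tested genes rose). Their median log2 fold changes were 1.62, 1.70 and 0.84. EPHA5, EPHA8 and EPHB6, at 0 reads in PBS, passed the filter through the Mig libraries only, so these counts and medians lean upward.

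The rest of the family was not called. EFNA3 had 300, 317, 431 and 270 reads with PBS, normo-Migs, hypo-Migs and CD147KO-Migs, EPHA10, a receptor without kinase activity, had 240, 163, 182 and 185, and EFNA2 had 72, 100, 87 and 67. EPHA6 and EPHB1 had at most 6 reads in any library. EPHA3 and EPHA7 had 0 reads in all 4.

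Downstream of the receptors, 24 of 25 genes of forward signalling were tested, exchange factors for small GTPases, adaptors, kinases and the GTPases themselves. Against PBS, 7, 7 and 6 of them rose with the Migs, where 16.5%, 17.5% and 16.6% of all tested genes did, and 0 fell. Their medians were 0.17, 0.17 and 0.19. TIAM1, an exchange factor for Rac, had 0 reads with PBS and 239, 227 and 252 with the Migs. It passed the filter through the Mig libraries only, and its counting intervals against PBS had lower ends at log2 6.025, 5.714 and 6.062. SRC, a kinase that Eph receptors recruit, had 122 reads with PBS and 1556, 1669 and 1581 with the Migs.

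NGEF, known as ephexin and an exchange factor that binds EphA4, had 51 reads with PBS and 613, 733 and 577 with the Migs, a rise of 12.2-fold, 12.4-fold and 11.1-fold. VAV3, another exchange factor, rose 5.70-fold, 5.71-fold and 6.92-fold. The GTPases RHOA and RAC1 were abundant and not called in any comparison. CDC42, also a GTPase of this list, had 21 reads with PBS and 46, 31 and 37 with the Migs. It was called higher with normo-Migs than with PBS (log2 1.08). Between Mig libraries, SH2D3C, an adaptor that binds Eph receptors, was the 1 gene of this list that was called, with 6 reads with normo-Migs and 21 with CD147KO-Migs (log2 -1.49). Of all tested genes, 4.90% were called in that pair.

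Of the 8 genes of reverse signalling, 7 were tested. PTPN13, a phosphatase that binds the tail of class B ephrins, was 2.17-fold, 1.97-fold and 2.13-fold higher than with PBS, which was a call with normo-Migs and CD147KO-Migs and just under the threshold with hypo-Migs. RGS3, which carries their signal to G proteins, was lower in each (log2 -0.67, -0.71 and -1.03) and was called with CD147KO-Migs. These made up 1, 0 and 2 called genes (27.2%, 28.3% and 27.5% of all tested genes were called), and 0 were called in any pair of Mig libraries. The medians against PBS were -0.08, -0.04 and -0.19.

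All 10 genes of shedding and turnover were tested. Against PBS, 1 rose and 2 fell with normo-Migs, 2 fell with hypo-Migs and 1 fell with CD147KO-Migs. Of all tested genes, 27.2%, 28.3% and 27.5% were called in these comparisons. PTPRO, a phosphatase that acts on Eph receptors, had 178 reads with PBS and 19, 16 and 21 with the Migs, and fell in each (log2 -3.08, -3.53 and -2.99). RHBDL2, a membrane protease that cuts class B ephrins, had 87 reads with PBS and 22, 43 and 48 with the Migs. It was called lower with normo-Migs and hypo-Migs (log2 -1.87, -1.19 and, not called, -0.85 with CD147KO-Migs) and was also lower with normo-Migs than with CD147KO-Migs (log2 -1.02). ADAM10, the main sheddase of ephrins, had 4750 to 5881 reads and was not called. MMP14 had 16 reads with PBS and 37, 32 and 27 with the Migs, and was called with normo-Migs.

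The 7 partners of EphA2 in VM were all tested, and 0 were called between Mig libraries. Against PBS, 4 rose and 1 fell with normo-Migs, 3 rose with hypo-Migs, and 3 rose and 1 fell with CD147KO-Migs, where 27.2%, 28.3% and 27.5% of all tested genes were called. MMP2, a gelatinase that opens the matrix, had 6 reads with PBS and 3272, 3515 and 2836 with the Migs. TFPI2, an inhibitor of proteases known from VM, had 6 and 1666, 1765 and 1178. Both rose in all 3 Mig libraries, while EPHA2 itself was lower in the same libraries. CDH5, the cadherin tied to EphA2 in VM, had 84 reads with PBS and 30, 72 and 59 with the Migs (log2 -1.41, -0.43 and -0.52), and was called with normo-Migs. PIK3CA, a catalytic subunit of PI3K, had 1808 reads with PBS and 970, 1160 and 765 with the Migs (log2 -0.88, -0.86 and -1.26), and was called with CD147KO-Migs. The other call in this list was MMP14, given above.

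**Figure D4:**
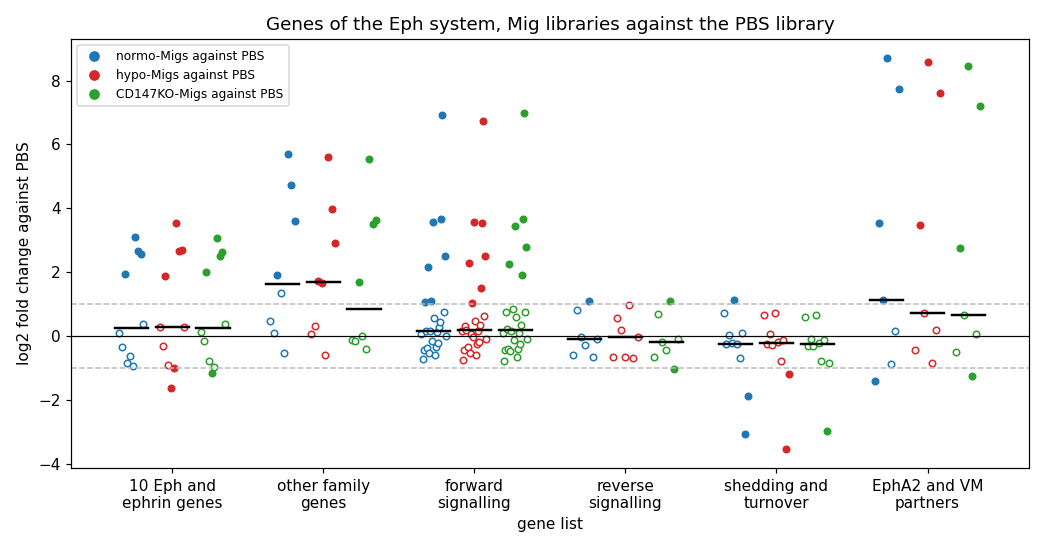
Log2 fold change against PBS of each tested gene in 6 lists for the 3 Mig libraries, with filled points for called genes, black bars for list medians and dashed lines at the fold threshold. The medians of the 10 genes lie at 0.24 to 0.27, and MMP2, TFPI2 and TIAM1 are the highest points.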

How the data were processed

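RNA was sequenced from 4 cultures of MHCC-97H cells, 1 library per condition. Per the labels, the tools were CASAVA 1.8, fastp, HISAT2 2.0.5 and featureCounts 1.5.0-p3 on hg38, and the strand setting is not given in the sources used here. The authors deposited raw counts of reads per gene without normalization. They also deposited FPKM, in which reads are divided by gene length and library size. One batch is given for all libraries. The labels and the supplementary methods name normoxia as the source of normo-Migs, which was used here, where the main text's methods write hypoxia.

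The 10 genes, the lists and the rule for named genes were chosen with earlier results of these data known. By that rule all members and family genes were named, with list genes called between Mig libraries and up to 4 per list with the largest calls against PBS in the same direction in all 3. RHOA, RAC1, CDC42, ADAM10, PTPN13, RGS3, RHBDL2, CDH5, PIK3CA, MMP14 and the single markers of cell types were added after their values were seen. One gene counted in a list is not reported here by name.

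Libraries were scaled by TMM (factors 0.986 to 1.02) in edgeR 4.0.16 under R 4.3.3. The filter kept 19895 genes that reached 10 reads in any library, and a prior count of 2 entered the log2 fold changes. DESeq2, the study's test, has no residual degrees of freedom here. Pairs of libraries were therefore tested on their reads by the exact binomial test of edgeR, two-sided, and p-values were adjusted by Benjamini and Hochberg's method. The thresholds of 0.05 and 1 were the study's. The procedure was tested on simulated counts that held counting error only, with changes planted in genes of many reads. Such counts cannot show how calls behave under spread between cultures, or how well changes at few reads are found. Levels carry 95% Wilson intervals, and folds carry exact intervals of the ratio. Where a fold was set against a floor, a count of 0 was taken as 3 reads, 0.0745 to 0.0885 CPM. The upper ends of the Wilson intervals at 0 reads lie higher. Python 3.11.15, pandas 2.3.3, scipy 1.17.1 and matplotlib 3.10.9 made tables and figures. The alternatives were other scalings, filters and prior counts, FPKM, the fold alone, assumed spreads between libraries, DESeq2 1.42.0, and protein-coding genes alone. Promoters came from RefSeq.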

Additional observations from a re-analysis of the deposited data

How the results depend on the processing

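No paired analysis was possible because each condition had 1 library, and no library could be left out within a condition. Between Mig libraries, 0 members were called under every alternative run, including scaling over the 3 Mig libraries alone, which was chosen after seeing the data. Against PBS, DESeq2 with its dispersion taken over the 4 libraries called 0 members in each of the 3 comparisons, with fold changes in the same direction. That dispersion counts the difference between PBS and the Mig libraries as spread, so this loss is not a separate check of the calls. An assumed coefficient of variation of 0.4 left 2, 3 and 2 called members for normo-Migs, hypo-Migs and CD147KO-Migs. A filter of 10 reads in every library, which takes EPHA1 and EPHA4 out of the test, left 3 with hypo-Migs and 3 with CD147KO-Migs. FPKM plus 1 left 3 with CD147KO-Migs. Under both alternatives EPHA4 was without a call in all 3 comparisons with PBS, so the counts not given here fell too. The spread of the 3 Mig libraries taken as replicates (coefficient of variation 0.0746, chosen after seeing the data) left 4, 6 and 4. Of 738 member fold changes under alternatives, 699 kept their call and stayed within their counting interval where uncalled, 32 called ones lost the call, 3 uncalled ones gained it, 4 moved outside their counting interval, and 0 called ones changed sign. Of the uncalled ones, 5 changed sign, all with a log2 of at most 0.007 in size. Depth limits EPHA1 and EPHA4, with 0 to 23 reads per library.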

Other observations

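Over the 4 libraries, the pattern of EPHA4 was set against 12187 protein-coding genes averaging 50 reads or more. The nearest were NBPF6, PCSK1 and ACTC1, with root mean square differences of centred log2 levels of 0.0443, 0.0511 and 0.0585. NBPF6 had 10, 107, 147 and 102 reads with PBS, normo-Migs, hypo-Migs and CD147KO-Migs. EPHA4 has few reads, so the same was done for EPHB3, which was chosen after its values were seen. Its nearest genes were PSD3 (0.0155), GPC6 (0.0265) and PXDN (0.0298). PSD3 had 164, 960, 1247 and 1036 reads in the same order, and PXDN, a peroxidase of the matrix, had 1371, 8171, 9789 and 8383. With 4 libraries, a pattern of low PBS and 3 like Mig libraries is shared by many genes.

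EFNA4, EFNA3 and EFNA1 lie within 71.1 kb on chromosome 1 (GRCh38, plus strand, from 155063731 to 155134857). Their FPKM with PBS was 13.3, 4.54 and 29.7, and with hypo-Migs 10.7, 5.58 and 35.6, so EFNA1 had the highest level of the 3 in both.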
